A study of Mus musculus with 15 samples.

Results

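The array used here carried 31330 autosomal transcript clusters to which its annotation gave no gene symbol, and their levels were compared in fetal mouse gonads of 3 genotypes. A transcript cluster is the array's unit for 1 transcribed region. These clusters were chosen by their ID, which begins with TC and then gives the chromosome, here 1 to 19, and by the lack of a symbol. They were 31330 of 61635 autosomal clusters, of which 28444 others carried 1 symbol and 1861 carried several. Whole gonads, separated from the mesonephros, were collected at embryonic day 15.5 (E15.5) from crosses of Amh+/-; Inhbb+/- mice. The dKO XY group were XY gonads with the genotype Amh-/-; Inhbb-/-. Both genes were inactivated in every cell of these animals, with no Cre driver involved. Control XY gonads (testes) and control XX gonads (ovaries) were wild type at both genes. Each group had 5 arrays, 1 per sample, and the study's methods describe the samples as biological replicates. The study's supplement describes each sample at this stage as 1 gonad.

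*Amh* encodes anti-Müllerian hormone, which Sertoli cells of the fetal testis secrete to remove the female reproductive tract. *Inhbb* encodes the beta subunit of activin B, another member of the TGF-beta family made by Sertoli cells. Whole-transcriptome arrays place probes on predicted transcripts, single spliced reads and long noncoding RNA candidates as well as on known genes. A region without a symbol can therefore be a noncoding RNA, an exon or intron of a neighbouring gene, a repeat or a region that is not transcribed. The array does not tell these apart. The deposited files give no coordinates or probe sequences for the clusters, so they are described by their ID, their level and the named clusters beside them in number.

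All values are normalized log2 signals as deposited. They ran from 2.13 to 19.93. A 16-bit scanner cannot pass 16 on a plain log2 scale, yet 356 of the clusters without a symbol did so on at least 1 array. The deposited values are therefore not plain log2 scanner signals. Whether the scale was stretched or shifted is not known, and a difference of 1 unit may be less than 2-fold. Differences are given with their standard error (SE), levels as mean ± SD over 5 arrays, and a cluster was called higher or lower at an adjusted p below 0.05 (limma, Benjamini-Hochberg over all 65956 clusters tested) with a difference of at least 1 unit.

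The labels held for the targeted hormone. *Amh* was at 4.51 ± 0.15 in dKO XY and 11.47 ± 0.49 in control XY, with control XX at 4.31 ± 0.14, whereas *Inhbb* was at 9.27 ± 0.10, 10.53 ± 0.12 and 9.18 ± 0.10. Whether the *Inhbb* probes lie in the deleted part is not given in the sources used here. Of 8 Sertoli cell markers, 4 were lower and 1 higher in dKO XY against control XY. The lower ones include the deleted *Amh*. The mean of the other 7 ran from 8.65 to 9.07 over the dKO XY arrays, from 9.47 to 9.69 in control XY and from 5.79 to 6.08 in control XX. Among them, *Hsd17b3* differed by -2.23 (SE 0.23) and *Cldn11* by 1.63 (SE 0.17) between dKO XY and control XY, whereas *Sox9* (-0.10, SE 0.08) and *Ptgds* (-0.25, SE 0.14) were not called. The mean of 6 granulosa cell markers ran from 7.95 to 8.33, from 6.17 to 6.37 and from 9.56 to 9.67 in the same order. The mean of 4 meiosis markers ran from 11.41 to 12.81, from 7.95 to 8.64 and from 13.83 to 14.30. Of 3 germ cell markers, *Dazl* was higher than in control XY both in dKO XY (1.56, SE 0.31) and in control XX (1.96, SE 0.31), and the other 2 were not called. Of 2 erythroid markers, *Slc4a1* was higher in control XX, by comparison with control XY (2.51, SE 0.67, adjusted p = 0.01, limma). The array mean of 3 mesonephric markers ran from 5.21 to 5.52, from 5.10 to 5.39 and from 5.15 to 5.41. None was called in any comparison, but only *Pax2* lay near the antigenomic background median of 3.61, at 4.01, 4.04 and 3.96. *Pax8* was at 6.20, 6.17 and 7.05 (control XX less control XY 0.87, SE 0.14, adjusted p = 0.00021) and *Lhx1* at 5.87, 5.33 and 4.97 (dKO XY less control XX 0.89, SE 0.17, adjusted p = 0.0013), both under 1 unit. In each comparison of groups below some of these markers were called and others were not, and their part in the results was not tested. In whole gonads, fewer cells of a type and less RNA per cell cannot be told apart.

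Most clusters without a symbol were dim. Their mean over the 15 arrays had a median of 4.87 and quartiles of 4.14 and 6.29, against a median of 5.93 for autosomal clusters with 1 symbol. The antigenomic background probes lay at a median of 3.61, and the 5222 negative control sets of the array at 6.24. A level under 4 was found for 5956 clusters (19%) and a level from 4 to 5 for 10776 (34.4%). At the other end, 1662 clusters (5.3%) had a mean of 10 and over. The spread between arrays of a group was also larger than for named clusters. At 7 to 8, the median SD within groups was 0.29 for clusters without a symbol and 0.15 for clusters with 1 symbol, and at 10 and over it was 0.29 and 0.16.

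Between dKO XY and control XY, the clusters without a symbol were mostly called in 1 direction. Of 31330, 70 were higher in dKO XY (0.223%, where 0.567% of all clusters tested were called higher) and 627 were lower (2%, where 1.62% of all clusters tested were called lower). Autosomal clusters with 1 symbol had 247 calls higher (0.868%) and 210 lower (0.738%). The median difference over all 31330 was -0.01, so the differences lay in a small share of the set. Among the called clusters the median difference was 1.42 for those higher and -1.18 for those lower. The 5 arrays of each group did not overlap for 63 of the 70 and for 387 of the 627. Over the whole array, the groups did not overlap in 4.26% of clusters in the upward and 4.59% in the downward direction, and for clusters without a symbol the shares were 1.54% and 3.9%. At an unadjusted p under 0.05, 1633 were higher and 3840 lower. The number of lower calls rests in part on 1 array: it was 339 without control XY replicate 5, of which 332 were among the 627, while 79 were then called higher. Without that array the lower share was 1.08%, against 1.02% of all clusters tested, so it was near the background.

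The share of lower calls grew with the level of the clusters up to 10. At 10 and over, a further rise came from clusters with identical values. Under 4, limma called 0 of 5956 in either direction (165 higher and 148 lower at an unadjusted p under 0.05), and an ANOVA without moderation also called 0. From 4 to 5, 0 were higher (440 at an unadjusted p under 0.05, and 0 by the ANOVA) and 27 lower of 10776. From 5 to 6, 5 were higher and 85 lower of 5598. The counts were 27 and 105 of 3626 from 6 to 7, 12 and 96 of 2154 from 7 to 8, and 17 and 83 of 1558 from 8 to 10. The lower share was thus 0.251% from 4 to 5, 4.46% from 7 to 8 and 5.33% from 8 to 10. Calls also grew with level among clusters with 1 symbol, where the lower share in these bins was 0.027%, 1.6% and 1.44%. Their higher share was 0.0135%, 1.29% and 2.1%. A rise with level was therefore not particular to clusters without a symbol. At 10 and over, 9 were higher and 231 lower of 1662, which is 0.542% and 13.9%. Of the 231, 182 had values identical to those of another cluster. With identical values counted once, 67 of 1379 were lower at 10 and over, against 83 of 1514 from 8 to 10. Counted in this way, the share did not rise further. Named clusters ran the other way at 10 and over, with 84 higher and 40 lower of 4410 (1.9% and 0.907%). Single arrays moved several of these counts. The 231 lower calls at 10 and over became 60 without control XY replicate 5 and 121 without dKO XY replicate 1, and the 9 higher calls became 17 without control XY replicate 2. The 105 lower calls from 6 to 7 became 63 without control XY replicate 5. Without control XY replicate 2, the 27 lower calls from 4 to 5 became 42 and the 0 under 4 became 6. From 5 to 6, the 5 higher calls became 8 without control XY replicate 4 and 9 without dKO XY replicate 5.

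**Figure D1:**
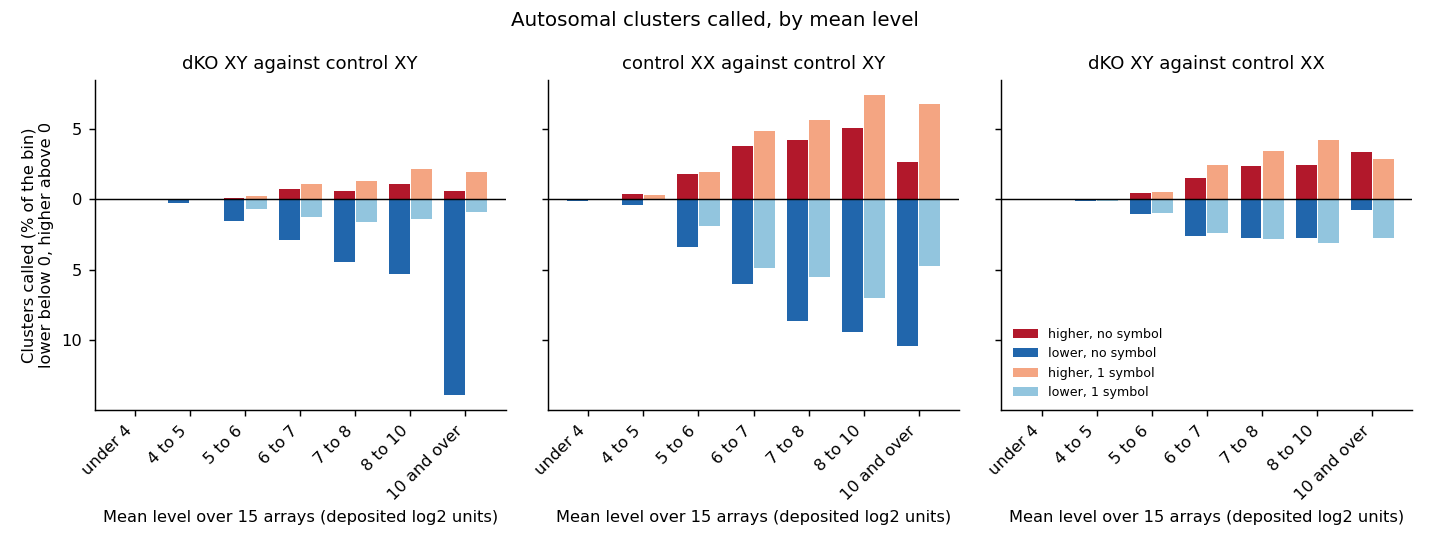
Share of autosomal clusters called higher (above 0) and lower (below 0) in the first group named, as a percent of each bin of mean level over the 15 arrays, for clusters without a gene symbol (dark bars) and with 1 symbol (light bars) in the 3 comparisons. The largest bar is the 13.9% of clusters without a symbol at 10 and over that were lower in dKO XY than in control XY. With identical values counted once, these were 67 of 1379.

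1 control XY array stood apart in the brighter clusters without a symbol. At a mean level of 7 and over, the array medians were 8.49, 8.55, 8.44, 8.57 and 9.06 in control XY replicates 1 to 5. They were 8.37, 8.48, 8.33, 8.40 and 8.35 in dKO XY, and 8.44, 8.53, 8.21, 8.39 and 8.58 in control XX. Replicate 5 of control XY was thus the highest of all 15 arrays and the other 4 of its group overlapped with both other groups. Named clusters at 7 and over did not show this: control XY replicate 5 was at 9.32, with the other 4 control XY arrays from 9.31 to 9.36. The negative control sets moved with it, at a median of 6.61 on control XY replicate 5 and 6.13 to 6.35 on the other 4. Its difference between positive and negative control medians, 4.31, was the lowest of the 15 arrays, the others being between 4.65 and 5.21. With the difference between the control medians as a covariate in the fit, 558 clusters were lower, and with array weights 471, against 339 with the array left out.

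**Figure D2:**
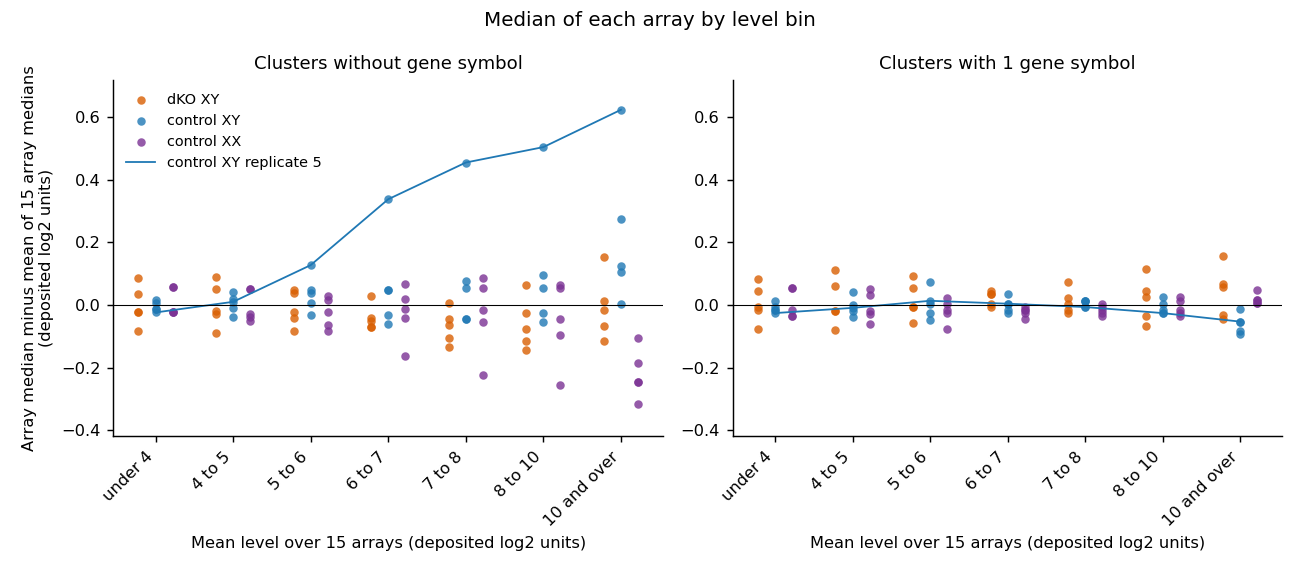
Median level of each array in 7 bins of mean level, less the mean of the 15 array medians in that bin (deposited log2 units), for autosomal clusters without a symbol (left) and with 1 symbol (right). Points are arrays, 5 per group, and the line follows control XY replicate 5, which lies above the other 14 arrays from the bin 5 to 6 upward on the left and among them on the right.

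The 627 lower clusters, chosen for being lower in dKO XY than in control XY, had a median level in dKO XY near that of the ovary. The median of their group means was 7.67 in dKO XY and 9.06 in control XY, and that in control XX was 7.42. Their array medians were 9.04, 8.67, 8.92, 9.25 and 9.81 in control XY replicates 1 to 5, against 7.31 to 7.96 in dKO XY and 7.24 to 7.68 in control XX. Control XY replicate 5 was the highest and replicate 2 the lowest of its group, and no control XY array reached the range of either other group. The 70 higher clusters showed the opposite order, with medians of group means of 7.44 in dKO XY and 6.03 in control XY, against 8.45 in control XX. Calls between dKO XY and control XY chose these clusters, so the gap between those groups is set by that choice. The control XX values are not, but their distances from dKO XY and control XY use the arrays that made the choice. Whether these clusters shifted toward the ovary was therefore not tested by these lists.

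Part of the bright lower calls were repeats of 1 measurement. In all, 599 clusters without a symbol had the same value as another cluster on all 15 arrays, and 337 of them had a mean of 10 and over. There were 132 such patterns shared by 2 or more clusters without a symbol, and 53 of these patterns lay on 2 or more chromosomes. The largest was shared by 60 clusters on 16 chromosomes, with the first in number being TC0100000118.mm.1. It read 9.96, 10.94, 10.18, 10.63 and 10.35 in dKO XY, 11.63, 10.85, 11.46, 11.19 and 12.25 in control XY, whereas control XX read 10.76, 10.90, 10.87, 10.73 and 11.12. The dKO XY and control XY arrays overlapped, with control XY replicate 2 inside the dKO XY range, and the difference was -1.07 (SE 0.22, adjusted p = 0.0045, limma). Patterns shared by 31 and 26 clusters differed by -1.03 (SE 0.19) and -1.14 (SE 0.23). Counting each pattern once, the 627 lower clusters came to 459 distinct measurements and the 231 at 10 and over to 67, while the 70 higher clusters were all distinct. Under 10, where shared values were rare, the 396 lower clusters came to 392 distinct measurements, and 279 clusters were lower without control XY replicate 5.

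All 19 autosomes had more lower than higher calls. Chromosome 14 had the highest share, with 51 of 1437 clusters lower (3.55%) and 4 higher. It was followed by chromosome 17 with 36 of 1333 (2.7%) and chromosomes 9 and 16 with 2.54% each. The lowest shares were on chromosome 11, with 14 of 1942 (0.721%), and chromosome 19, with 8 of 859 (0.931%). Higher calls were most numerous on chromosome 3, with 10. The nearest named cluster before was *Dclk1* for 3 of these, *Gm25132* for 2 and *Reg4* for 2. On chromosomes 11 and 19 limma called 0 higher, as did the ANOVA without moderation, with 123 and 37 higher at an unadjusted p under 0.05. Autosomal clusters with 1 symbol had another order, with 2.27% lower on chromosome 12 and 0.478% on chromosome 14. Without control XY replicate 5, chromosome 14 was still the highest at 34 of 1437 (2.37%) and chromosome 17 the next at 26 of 1333 (1.95%), but higher and lower calls were then level on chromosomes 7 and 10, with 6 each, and the lowest share was 0.116% on chromosome 19. Shares by chromosome are descriptions, since clusters of 1 stretch or with shared values are not independent. On chromosome 14, the nearest named cluster before was *Gm23509* for 22 of the 51 lower clusters and *Gpc6* for 13. On chromosome 17, it was *Efna5* for 13 of the 36 and *Slc8a1* for 11. The high shares of these chromosomes thus came mostly from a few neighbourhoods.

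**Figure D3:**
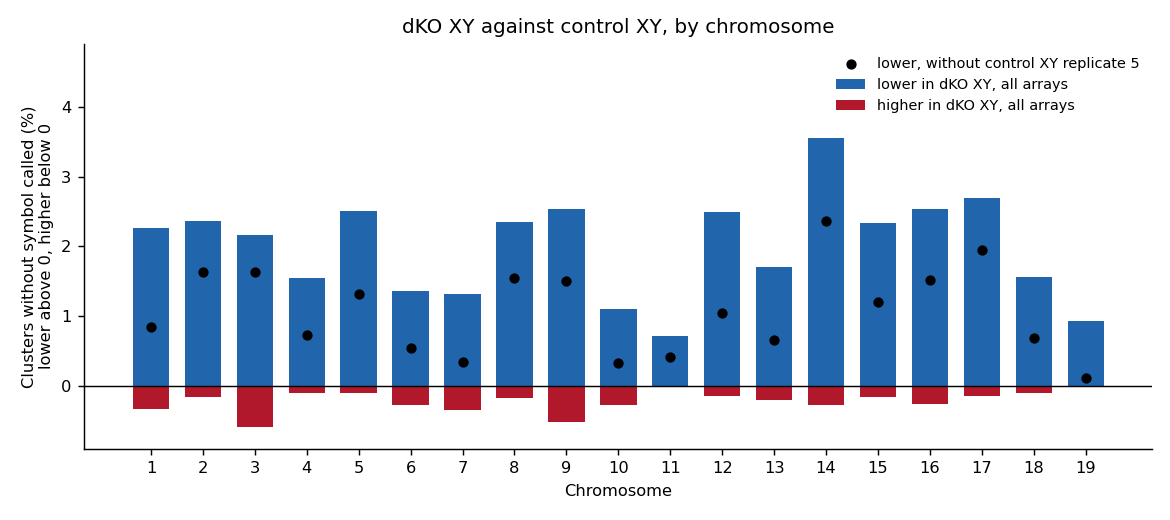
Percent of the autosomal clusters without a symbol on each chromosome that were called lower (blue, above 0) or higher (red, below 0) in dKO XY than in control XY, with black points for the lower share without control XY replicate 5. Chromosome 14 has the tallest bar and the highest point, at 3.55% and 2.37%.

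The IDs carry a number that follows position, and called clusters lay close together in it. For 28053 of 28444 named clusters a gene of the same symbol was found on the same chromosome of a RefSeq table (GRCm38.p6), and 99% of consecutive pairs had rising start positions, first along the plus strand and then along the minus strand. Among nested gene pairs, the longer gene came first in number in 790 and second in 48. A cluster that starts inside a long gene is therefore numbered after that gene, and the number does not tell whether it lies inside or beyond it. Of the 627 lower clusters, 329 (52.5%) had the preceding or following number called lower as well, whereas 3.03% of all clusters without a symbol had such a neighbour. For named clusters called lower the share was 26.2%. Of the 70 higher clusters, 30 (42.9%) had a neighbour called higher, against 0.993% of all. Without control XY replicate 5 the shares were 59.3% of 339 and 45.6% of 79. Neighbours of this kind can belong to 1 transcript, so they are not independent measurements.

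A minority of called clusters followed a named gene called in the same direction, and this was more frequent before than after them. The nearest named cluster before a lower cluster was itself lower for 113 of 626 (18.1%), whereas the nearest one after it was lower for 4.79%. Over all clusters without a symbol the shares were 1.13% before and 0.834% after. For higher clusters the shares were 32.9% before and 2.86% after. Below a level of 10 the share before was 25% of 396 lower clusters and at 10 and over it was 6.09% of 230. Without control XY replicate 5, the share before was 29.5% for lower clusters and the share after 6.19%. Most called clusters thus had a named gene before them without a call. The 113 followed 37 different named genes. Among the 15 named genes followed by at least 7 lower clusters, 7 were called lower and 8 were not, with differences from -1.83 to 0.14. *Gm23509* was followed by the most, 22 of 29, and differed by -0.42 (SE 0.13). *Nlgn1*, a synaptic adhesion protein, was followed by 17 lower clusters of 29 and itself differed by -0.69 (SE 0.10, adjusted p = 0.00034, limma). *Gpc6*, a heparan sulfate proteoglycan of the cell surface, was followed by 13 of 21 and differed by -0.99 (SE 0.08). *Ldb2*, a cofactor of LIM-domain transcription factors, was followed by 8 of 11 and differed by -1.20 (SE 0.10), which was called. *Unc5c*, a netrin receptor, was followed by 8 of 12 and differed by -1.38 (SE 0.13). *Alcam*, a cell adhesion protein, was followed by 7 of 7 and differed by -1.35 (SE 0.18), whereas *Gm23185* was followed by 7 of 10 and differed by 0.14 (SE 0.16). These genes were picked from the 15 after their values were seen.

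The 627 lower clusters formed 415 stretches of consecutive numbers, of which 318 were single clusters, 97 had at least 2 and 16 had at least 5. The longest stretch held 12 clusters, TC1400002555.mm.1 to TC1400002566.mm.1 on chromosome 14. It began 18 numbers after the named cluster *Gm23509*, described above, and the next number after it, *Gm23324*, differed by -0.04. The 12 differences ran from -1.85 to -1.23. The brightest, TC1400002566.mm.1, was at 8.15 ± 0.30 in dKO XY and 9.73 ± 0.24 in control XY, with control XX at 7.85 ± 0.26. All 12 were called lower without control XY replicate 5 as well, and the groups overlapped in TC1400002560.mm.1. The next stretch held 11 clusters, TC1700002601.mm.1 to TC1700002611.mm.1. It began 4 numbers after *Slc8a1*, which encodes a sodium-calcium exchanger and differed by -0.91 (SE 0.15), short of the 1 unit needed. The 11 differences ran from -1.88 to -1.35, and all 11 remained called without control XY replicate 5. In TC1700002609.mm.1 the level was 8.18 ± 0.47 in dKO XY and 10.06 ± 0.44 in control XY, with control XX at 8.22 ± 0.34.

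The stretches after *Efna5* and *Fam155a* held the 4 largest decreases among clusters whose groups did not overlap. *Efna5* encodes a membrane-bound ligand of Eph receptors and was itself lower in dKO XY, at 9.36 ± 0.20, than in control XY, at 11.19 ± 0.26 (difference -1.83, SE 0.13, adjusted p = 4.9e-07, limma). Of the 15 clusters without a symbol between it and *Fbxl17*, 13 were called lower, with a median difference of -1.86 over the 15. The last of them, TC1700002383.mm.1, was at 4.25 ± 0.24 in dKO XY and 4.34 ± 0.16 in control XY and was not called. *Fbxl17*, an F-box protein gene, differed by -0.01. Against control XX, 2 of the 15 were higher in dKO XY. After *Fam155a*, whose product is an auxiliary subunit of a sodium leak channel, 10 of 15 were lower in dKO XY. *Fam155a* itself was at 4.84 ± 0.25 in dKO XY against 6.65 ± 0.32 in control XY and 4.50 ± 0.21 in control XX, and *Lig4*, which encodes a DNA ligase and ends this stretch, differed by 0.01. After *Fat3*, an atypical cadherin, 7 of 7 were lower, with a median difference of -1.41 beside -1.60 (SE 0.14) for *Fat3*. 6 of these 7 remained called without control XY replicate 5. Among other stretches of lower clusters, 4 of 7 remained after *Gm23185*, 5 of 9 after *Dlc1* and 6 of 8 in the longer stretch after *Nlgn1*. In the shorter stretch after *Nlgn1* 6 of 6 remained, as did 7 of 7 after both *Unc5c* and *Alcam*. After *Efna5*, 9 of 10 remained, and after both *Gpc6* and *Gm22163* 6 of 7.

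Stretches of higher clusters were shorter. The longest held 5 clusters, TC0900001805.mm.1 to TC0900001809.mm.1, which filled the numbers between *Muc16* and *Olfr24*. *Muc16* encodes a large membrane mucin of surface epithelia. Its levels were 8.59 ± 0.39 in dKO XY and 7.22 ± 0.32 in control XY, with control XX at 8.60 ± 0.13 (dKO XY less control XY 1.37, SE 0.17, adjusted p = 9.1e-05, limma). The 5 clusters differed by 1.35 to 1.89 between dKO XY and control XY and by -0.05 to 0.26 between dKO XY and control XX. The olfactory receptor gene *Olfr24* differed by 0.09. The other stretch of at least 3 followed *Dclk1*, a kinase that binds microtubules. All 3 clusters between *Dclk1* and *Gm25132* were higher in dKO XY, by 1.29 to 2.17, as was *Dclk1* at 1.66 (SE 0.12). They exceeded control XY by 2.26 to 3.38 in control XX. Both stretches were called in full without control XY replicate 5.

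**Figure D4:**
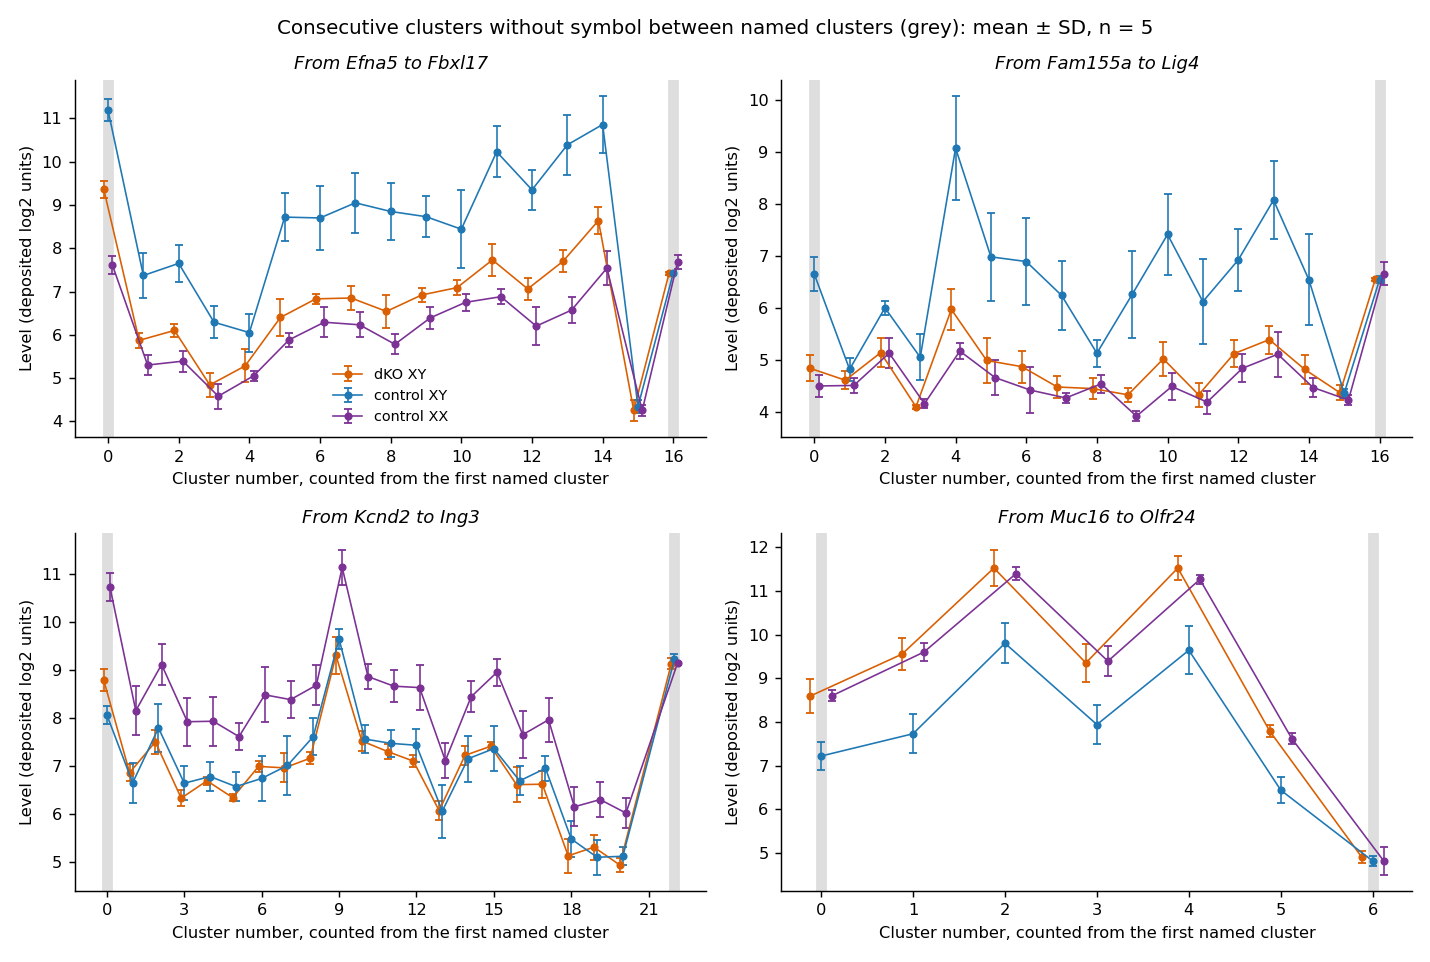
Levels of consecutive clusters (mean ± SD of 5 arrays, deposited log2 units) along 4 stretches that start and end with a named cluster (grey bands), by cluster number counted from the first. Over most of their length, the stretches after *Efna5* and *Fam155a* are highest in control XY and that after *Kcnd2* in control XX, and the 5 clusters after *Muc16* are lowest in control XY.

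The cluster with the largest increase in dKO XY was TC0300000979.mm.1. It read 13.32, 13.25, 13.10, 12.71 and 12.69 in dKO XY, 8.67, 9.32, 9.27, 9.14 and 9.04 in control XY, and 13.24, 13.90, 13.88, 13.28 and 13.36 in control XX. The dKO XY arrays lay far above control XY and overlapped with control XX. The difference from control XY was 3.92 (SE 0.17, adjusted p = 2.8e-09, limma) and that from control XX was -0.52 (SE 0.17, adjusted p = 0.054). The preceding number was *Reg4*, a secreted lectin of the gut, which was near background at 3.96 ± 0.19, 4.09 ± 0.19 and 3.93 ± 0.20. Next was TC0600001157.mm.1, at 9.25 ± 0.24 in dKO XY against 6.29 ± 0.21 in control XY and 10.20 ± 0.25 in control XX, with a difference from control XY of 2.96 (SE 0.14, adjusted p = 4.3e-09). The groups did not overlap, and the next number, *Ppp4r2*, a subunit of protein phosphatase 4, was at 12.12 ± 0.13 and 12.33 ± 0.17 in dKO XY and control XY. TC0700002071.mm.1 was at 13.42 ± 0.24, 10.88 ± 0.22 and 13.72 ± 0.32, and TC1500001531.mm.1 at 10.37 ± 0.23, 7.94 ± 0.25 and 11.18 ± 0.65 in the same order. Their differences from control XY were 2.54 (SE 0.15) and 2.43 (SE 0.24). The named clusters beside all 4 of them had no call in this comparison.

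The largest decreases in dKO XY were in 2 of the stretches described. TC0800001670.mm.1, after *Fam155a*, read 5.86, 6.60, 5.52, 5.88 and 5.96 in dKO XY, 9.16, 7.53, 8.86, 9.57 and 10.23 in control XY, and 5.35, 5.29, 5.21, 4.98 and 5.04 in control XX. Control XY spread over more than 2 units, with replicate 2 the lowest and replicate 5 the highest, and still did not overlap with dKO XY. The difference was -3.10 (SE 0.35, adjusted p = 3.1e-05, limma). TC1700002381.mm.1, after *Efna5*, read 7.50, 7.97, 7.35, 7.79 and 7.88 in dKO XY, 10.49, 9.29, 10.30, 10.72 and 11.15 in control XY, and 6.85, 6.59, 6.66, 6.05 and 6.68 in control XX. Each group was separate from the others, and dKO XY was below control XY by 2.70 (a difference of -2.70, SE 0.26) and above control XX by 1.13 (SE 0.26, adjusted p = 0.006). TC0800001679.mm.1 (-2.67, SE 0.29) and TC1700002379.mm.1 (-2.50, SE 0.23) lay in the same stretches. In all 4, control XY replicate 2 was the lowest and replicate 5 the highest of the control XY arrays.

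Between the control gonads, the testis exceeded the ovary in more of these clusters than the reverse. In control XX, 485 were higher (1.55%, where 2.54% of all clusters tested were called higher) and 963 were lower (3.07%, where 3.22% of all clusters tested were called lower). The share of lower calls was thus near that over the whole array, and the share of higher calls below it. Named autosomal clusters had 988 higher and 869 lower. The groups did not overlap in 426 of the 485 and 865 of the 963. Called or not, they did not overlap upward in 4.04% and downward in 7.24% of clusters without a symbol, below the 8.38% and 9.79% of all clusters tested. The named cluster before was called in the same direction for 42.8% of the higher and 39.8% of the lower ones, against 13.6% and 9.88% for the named cluster after. Over all clusters without a symbol these shares were 4.65% and 4.49% before and 4.04% and 3.45% after. They were larger than in the comparison of dKO XY with control XY, so the shares of the 2 comparisons are not set against each other. The number of higher clusters was at most 552 and at least 431, and that of lower clusters at most 1086 and at least 798, with any single array left out.

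TC0100001206.mm.1 showed the widest gap between the controls. It read 14.17, 13.79, 13.12, 13.60 and 14.19 in control XY and 5.44, 5.48, 5.11, 5.34 and 5.21 in control XX, while dKO XY read 12.45, 11.99, 11.88, 12.07 and 12.10. The 3 groups were separate, with dKO XY nearer to the testis. The differences were -8.46 (SE 0.17, adjusted p = 1.6e-14, limma) for control XX and -1.67 (SE 0.17, adjusted p = 1.2e-05) for dKO XY against control XY. The named clusters on either side, *Plekha6* and *Gm23939*, differed by -0.13 and 0.73 between the controls. TC1300000114.mm.1 was the next number after *Inhba*, the gene for the subunit of activin A. It read 12.02, 11.37, 10.81, 11.31 and 11.73 in control XY, 9.82, 10.05, 9.33, 9.51 and 9.95 in dKO XY, and 4.84, 4.81, 5.63, 5.12 and 4.62 in control XX. The groups were separate again, and *Inhba* had the same order, at 9.53 ± 0.25, 8.48 ± 0.23 and 7.02 ± 0.09. Between dKO XY and control XY the cluster differed by -1.72 (SE 0.22) and *Inhba* by -1.06 (SE 0.12).

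The other 2 clusters with the largest deficits in the ovary did not pass the test between dKO XY and control XY. TC0300002563.mm.1 lay between *Hsd3b6* and *Hsd3b1*, the latter encoding an enzyme of progesterone and androgen synthesis. It read 15.41, 15.55, 15.24, 15.33 and 15.65 in dKO XY, 15.43, 15.05, 15.35, 15.47 and 15.29 in control XY, and 10.14, 10.11, 10.13, 9.83 and 9.71 in control XX. The dKO XY and control XY arrays overlapped (difference 0.12, SE 0.11, adjusted p = 0.62, limma), and *Hsd3b1* gave 14.75 ± 0.14, 14.64 ± 0.23 and 9.42 ± 0.27. The other, TC1700002719.mm.1, preceded *Fshr*, the receptor of follicle-stimulating hormone in Sertoli and granulosa cells. Its levels were 11.55 ± 0.25 in dKO XY and 11.98 ± 0.27 in control XY, with control XX at 6.82 ± 0.37, and its difference between dKO XY and control XY was -0.44 (SE 0.17, adjusted p = 0.14). *Fshr* was called lower in dKO XY, at 6.33 ± 0.20 against 8.0 ± 0.52 (difference -1.67, SE 0.19, adjusted p = 3.8e-05). Whether the cluster and the gene differ in their response was not tested.

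Clusters higher in the ovary were led by TC0300000979.mm.1, with a difference of 4.44 (SE 0.17) from control XY. TC0400002641.mm.1, between *Pgap4* and *Grin3a*, was at 9.27 ± 0.64 in control XX, 4.85 ± 0.12 in control XY and 7.09 ± 0.59 in dKO XY. TC1000002683.mm.1, 2 numbers after *Mir1251*, was at 11.01 ± 0.47 in control XX, 6.96 ± 0.34 in control XY and 7.94 ± 0.35 in dKO XY, where its difference from control XY, 0.99 (SE 0.22, adjusted p = 0.008), was short of 1 unit. The longest stretch of clusters higher in the ovary held 15, TC0600000159.mm.1 to TC0600000173.mm.1, from the next number after *Kcnd2*, a voltage-gated potassium channel subunit. They differed by 1.04 to 1.74 and *Kcnd2* by 2.66 (SE 0.14). The longest stretch lower in the ovary held 14 clusters after *Efna5*, which differed by -3.83 to -1.01.

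Between dKO XY and control XX, 224 clusters without a symbol were higher in dKO XY (0.715%, where 1.22% of all clusters tested were called higher) and 282 were lower (0.9%, where 1.28% of all clusters tested were called lower). Among named autosomal clusters 480 were higher and 441 lower. No overlap between the groups was found for 207 of the 224 and 248 of the 282. Called or not, it was found upward in 3.12% and downward in 3.07% of clusters without a symbol, below the 6.4% and 5.89% of all clusters tested. At 10 and over the direction turned, with 56 of 1662 clusters higher (3.37%) and 13 lower (0.782%). Clusters with 1 symbol at this level had 126 of 4410 higher (2.86%) and 121 lower (2.74%). The higher shares were thus near each other, and the lower shares were not. The longest stretch in this comparison followed *Kcnd2* and held 18 clusters, TC0600000159.mm.1 to TC0600000176.mm.1, all lower in dKO XY, by 1.02 to 1.83 (differences of -1.83 to -1.02). Of the 20 clusters between *Kcnd2* and *Ing3*, 19 were lower in dKO XY than in control XX, and 17 were higher in the control ovary than in the control testis. In the comparison of dKO XY with control XY, limma and the ANOVA called 0 of the 20, with 1 lower at an unadjusted p under 0.05 and a median difference of -0.13. *Kcnd2* differed by 0.73 between dKO XY and control XY and was not called. Among single clusters, TC1000002683.mm.1 was the lowest against control XX, with a difference of -3.07 (SE 0.22, adjusted p = 8.6e-08, limma). TC0500000150.mm.1, TC0500000138.mm.1 and TC1000002679.mm.1 followed, with differences of -2.80 (SE 0.31), -2.59 (SE 0.12) and -2.50 (SE 0.24), and the adjusted p of these 3 between dKO XY and control XY ran from 0.074 to 0.78.

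Few clusters in dKO XY lay outside both controls. Called against both, 3 of 31330 were above and 4 below, where 30 and 12 of all 65956 clusters tested were. The arrays did not overlap in 1 of the 3 and in 3 of the 4, which was not counted over the whole array. The one above, TC0800003187.mm.1, between *Pcnx2* and *Tarbp1*, read 7.25, 8.16, 7.12, 7.73 and 8.40 in dKO XY, 6.24, 6.04, 5.99, 6.12 and 6.02 in control XY, and 6.51, 6.64, 6.25, 6.40 and 7.04 in control XX. Its lowest dKO XY array was just above the highest control XX array. The differences were 1.65 (SE 0.21) from control XY and 1.16 (SE 0.21, adjusted p = 0.00092, limma) from control XX. Below both controls were TC0100001696.mm.1, at 7.27 ± 0.31 in dKO XY against 9.06 ± 0.44 in control XY and 8.36 ± 0.24 in control XX, and TC0500000927.mm.1, at 6.35 ± 0.33, 7.77 ± 0.39 and 7.41 ± 0.32. The latter was the next number after *Fras1*, an extracellular matrix protein of epithelial basement membranes, which was also lower in dKO XY than in both controls, at 9.33 ± 0.19, 10.35 ± 0.30 and 10.39 ± 0.38. The last, TC0300001437.mm.1, after *Unc5c*, was at 6.03 ± 0.34, 7.81 ± 0.37 and 7.03 ± 0.11. The differences of these 3 from control XX, -1.09 (SE 0.19), -1.06 (SE 0.20) and -1.0 (SE 0.17), were close to the 1 unit required. That of TC0100001696.mm.1 fell short of it without dKO XY replicate 3 (-0.99) or control XX replicate 3, and that of TC0500000927.mm.1 without dKO XY replicate 1 (-0.95) or control XX replicate 2 (-0.94). That of TC0300001437.mm.1 fell short without any one of dKO XY replicates 1, 3 and 4 and control XX replicates 2, 3 and 5, reaching -0.91 without dKO XY replicate 1. That of TC0800003187.mm.1 fell just short without dKO XY replicate 5.

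**Figure D5:**
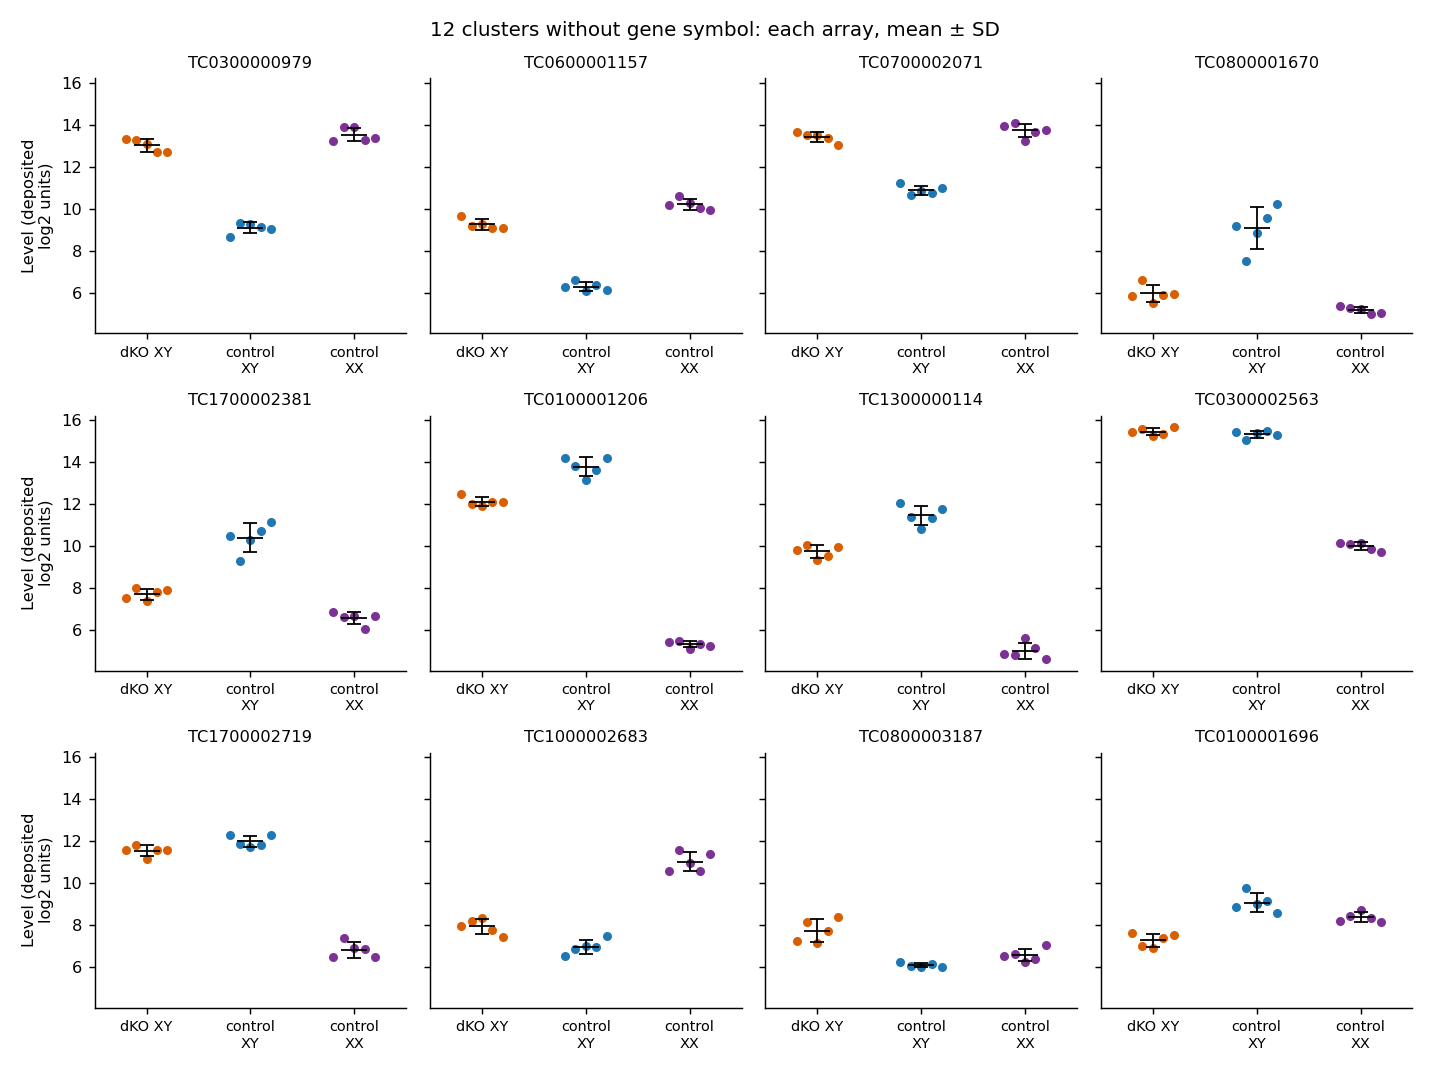
Levels of 12 clusters without a gene symbol on each array (points, 5 per group, deposited log2 units) with the mean and SD of each group. In TC0300000979 the dKO XY points lie with control XX near 13, in TC0300002563 they lie with control XY near 15, and in TC0100001696 they lie below both controls.

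The brightest clusters lay at the upper end of the table. TC0100002078.mm.1 and TC0400001746.mm.1 both had a mean of 19.89, where the highest value deposited was 19.93, and control XY had an SD of 0.01 in both. Values so near the top may be saturated, so no comparison of groups is drawn from them. *Gm10925*, the named cluster before TC0100002078.mm.1, had the same mean level of 19.89.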

How the data were processed

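RNA of whole E15.5 gonads was amplified, labelled with biotin and hybridized to Affymetrix mouse transcriptome arrays, 15 in 3 groups of 5. The labels and the study's methods differ in the amount of RNA amplified. The stage is E15.5 in the labels, which were followed, and an earlier one in the data availability statement. The deposited table holds 1 log2 signal per transcript cluster, which the authors obtained with the manufacturer's software after RMA normalization. The scale exceeds plain log2, so differences are in deposited units. Of 72688 entries, 6732 control entries were left out, and 65956 clusters were tested. The array's genome build is not given in the sources used here.

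All 15 arrays entered a single limma fit with a mean for each group (limma 3.58.1 in R 4.3.3, eBayes, two-sided), and 3 contrasts were adjusted by Benjamini-Hochberg over all clusters. The study's methods name a one-way ANOVA with the same thresholds, which was run as an alternative. On simulated data, 99% of clusters changed by 2 units between dKO XY and control XY were recovered, with 1 unchanged cluster called. Only changes of 2 and 3 units were simulated. The simulated noise was drawn separately for each cluster, without a shift shared by many clusters on 1 array and without identical values. The 1 false call therefore cannot tell how many arise where an array such as control XY replicate 5 stands apart. Recovery near the threshold of 1 unit was not tested, and the lower clusters had a median difference of -1.18. Arrays count no molecules, so their number limits the precision.

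Clusters named in the text were, per contrast, the 4 highest and 4 lowest called ones whose groups did not overlap, up to 3 farthest beyond both controls, the 2 with the highest mean and the 2 longest stretches per direction. Other stretches and named genes were chosen after their values were seen. The members, lists and rules were chosen with earlier results of these data known. Symbols are those of the platform annotation given with the table. Markers of Sertoli, granulosa, germ, meiotic, fetal Leydig, mesonephric and erythroid cells checked the tissue. The 3 fetal Leydig markers had array means of 16.02 to 16.63 in dKO XY and 16.63 to 17.17 in control XY, against 6.64 to 8.30 in control XX. The 3 germ cell markers had array means of 14.29 to 14.94, 13.81 to 14.64 and 14.38 to 14.94 in the same order, and the 2 erythroid markers of 8.43 to 10.05, 8.55 to 9.91 and 9.22 to 11.86. Alternatives covered normalization, array weights, filters, thresholds, a covariate, the replicate number and each array left out.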

Additional observations from a re-analysis of the deposited data

Results flagged for a closer look

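Each group of 5 arrays was examined for an array that stood apart from the other 4 by Dixon's ratio, over array medians and over the clusters described. Of 105 such groups 9 held one. The groups are not independent, since 7 and over contains 7 to 8 and 8 to 10, so this count cannot be set against chance. Control XY replicate 5 stood apart in the median of clusters without a symbol at levels of 6 to 7 (6.79, others 6.39 to 6.50), 7 to 8 (7.88, others 7.38 to 7.50), 8 to 10 (9.23, others 8.67 to 8.82) and 7 and over (9.06, others 8.44 to 8.57). The values it gave in the counts of calls stand beside those counts. Control XX replicate 3 had a low median of the negative control sets, 6.03, with the others between 6.23 and 6.29. In TC0400002641.mm.1, control XX replicate 1 read 8.16 and the others 9.30 to 9.67, still above the dKO XY and control XY arrays. In the 2 brightest clusters the gaps were small: control XX replicate 5 read 19.88 in TC0100002078.mm.1 and 19.88 in TC0400001746.mm.1, with the others from 19.91 to 19.92, and dKO XY replicate 3 read 19.72 in TC0400001746.mm.1, with the others from 19.86 to 19.91.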

How the results depend on the processing

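Without a minimum difference, 473 clusters were higher and 1828 lower in dKO XY than in control XY, 2039 higher and 3537 lower in control XX against control XY, and 1149 higher and 1500 lower in dKO XY than in control XX, since a smaller change then suffices. With any single array left out, the counts ran from 61 to 87 higher and from 339 to 823 lower for dKO XY against control XY, from 431 to 552 and from 798 to 1086 for control XX against control XY, and from 205 to 255 and from 241 to 357 for dKO XY against control XX. The 339 was reached without control XY replicate 5 and the 823 without control XY replicate 2. Among clusters above the median level of the array, the median difference was -0.08 for dKO XY and -0.10 for control XX against control XY, as dim clusters were left out. A second quantile normalization, equal medians, array weights, the control probe covariate, the unmoderated ANOVA and the fit of 2 groups alone kept every count within 1.5 times of the main one. Arrays with the same replicate number showed little likeness between groups. For dKO XY and control XY, r ran from -0.19 to -0.04, with 0 of 5 pairs over 0.1. It ran from -0.11 to 0.19 for control XX and control XY, with 1 of 5 pairs over 0.1. For dKO XY and control XX it ran from -0.17 to 0.16, again with 1 of 5 over 0.1. No pairing by number was seen, although 5 pairs are few. With the replicate block, 69 clusters were higher and 627 lower in dKO XY than in control XY. 2 further settings were chosen after seeing the data. Counting identical values once gave 70 higher and 459 lower, and leaving out control XY replicates 2 and 5 together gave 93 higher and 552 lower. For 23 clusters described singly, 1092 of 1104 alternative values stayed past the threshold in the same direction and 12 fell short of it, all of them differences between dKO XY and control XX of the 4 clusters beyond both controls, with values of 0.91 to 1.0 units in size, and 0 changed sign.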
